A study of Vitis vinifera with 4 samples.

Results

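The events described here are the MYBPA1 binding events that the deposited list places on chr03, chr04 and chr18 of grapevine. They were taken by chromosome name alone, a rule that uses no measured value. The set was chosen with earlier results of these data known. The events number 5451 of 30318 in the whole list, or 18.3% of the 29836 events on numbered chromosomes. Chr03 held 1258 of them, chr04 1838 and chr18 2355. The assay was DAP-seq (DNA affinity purification sequencing): genomic DNA is offered to a protein carrying a HALO affinity tag, and what the protein retains is sequenced. One group of 2 libraries had MYBPA1 made in rabbit reticulocyte lysate, and the control group of 2 libraries had the tag construct pIX-HALO. Both groups used genomic DNA from young leaves of Pinot Noir, so no plant treatment or genotype was compared. The events describe purified leaf DNA in a tube and a protein without its plant partners. Only 1 list was examined, with no value per library. Sequencing depth is unknown, and the variation from library to library could not be measured for any difference below.

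MYBPA1 is an R2R3-type MYB transcription factor that activates genes of proanthocyanidin (condensed tannin) synthesis in grape berries and seeds, among them those for leucoanthocyanidin reductase and anthocyanidin reductase. MYB proteins of this type bind short DNA motifs that occur all over a plant genome, so a list from naked DNA is usually much longer than the set of genes the protein regulates. The grapevine genome descends from an ancient hexaploid, and stretches of chr03, chr04 and chr18 are regarded as copies of the same ancestral chromosome. Shared ancestry holds for stretches rather than for whole chromosomes, and copies have since lost genes and gained repeats. The comparison asked whether the descendants still carry alike amounts, spacing and strength of MYBPA1 events. The genome build of the coordinates is not given in the sources used here and no genome of that build was used, so events are described by position, without sequence and without genes.

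In density, chr04 was among the richest chromosomes, chr18 was intermediate and chr03 lay below both. Measured from the outermost event at each end of a chromosome, chr04 held 74.5 events per Mb (95% exact Poisson interval 71.1 to 77.9). Chr18 held 68.2 per Mb (65.5 to 71.0). Chr03 held 61.0 per Mb (57.6 to 64.4). Among the 19 numbered chromosomes these were ranks 4, 8 and 12, and the spans were 24.7, 34.5 and 20.6 Mb in that order. The intervals cover counting error only. The 3 chromosomes together had 68.3 events per Mb and the other 16 together 64.6.

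Density also varied greatly within each chromosome, and the test of density therefore used the spread between 1 Mb windows in place of counting error. Events per full window were fitted by quasi-Poisson regression over the 449 full windows of the 19 chromosomes. The variance was 10.4 times that of independent counts. No difference among the 3 chromosomes passed. Chr04 had 1.21 times the density of chr03 (95% interval 0.953 to 1.52, adjusted p = 0.292, n = 449 windows in the fit). Chr18 had 1.11 times that of chr03 (0.889 to 1.39, adjusted p = 0.544) and 0.923 times that of chr04 (0.756 to 1.13, adjusted p = 0.608, n = 449 windows). The intervals still allow chr04 to be over 1.5 times as dense as chr03, so the chromosomes are not shown to be alike. The mean of the 3 was 1.06 times that of the other 16 (0.963 to 1.17, p = 0.223, adjusted over the 4 measures tested 0.446, n = 449 windows).

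Adjusted p-values are by the Benjamini-Hochberg method over all pairs of numbered chromosomes, of which 11.7% differed in density at an adjusted p under 0.05. Of the 48 pairs that set one of the 3 against another chromosome, 4 differed (8.33%), a share below that background. Chr04 was 1.52 times as dense as chr09 (1.19 to 1.94, adjusted p = 0.0227), 1.45 times as dense as chr16 (1.14 to 1.84, adjusted p = 0.0296) and 1.39 times as dense as chr19 (1.10 to 1.76, adjusted p = 0.0457, n = 449 windows). Chr18 was 1.40 times as dense as chr09 (1.11 to 1.77, adjusted p = 0.0445, n = 449 windows). Chr03 differed from none of the 16 after adjustment. Neighbouring windows had similar counts, with a correlation of 0.728 between successive windows on chr03, 0.417 on chr04 and 0.638 on chr18, which makes p-values over 1 Mb windows too small. With windows of 2 Mb the ratios of the 4 pairs that differed were of the same size, 1.52, 1.49, 1.39 and 1.40 in the order above. The intervals were wider, however, and none passed (adjusted p = 0.177 to 0.230, n = 222 windows).

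**Figure D1:**
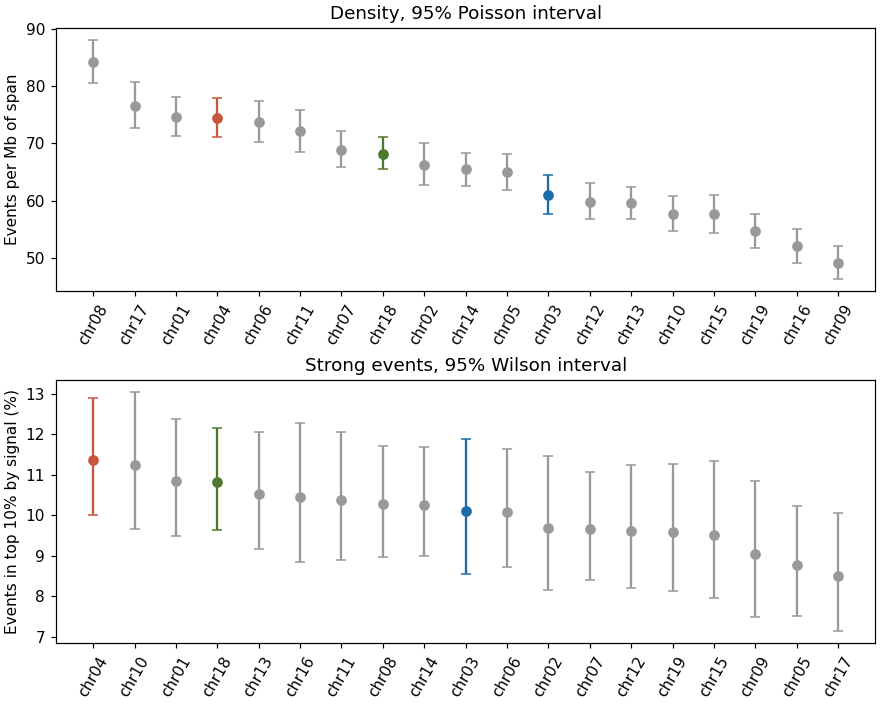
The upper panel plots events per Mb of span and the lower panel the percent of events in the top 10% by signal, for each of the 19 numbered chromosomes in falling order, with 95% counting intervals as bars. Chr04, chr18 and chr03 are coloured and the others grey. Chr04 stands at 74.5, chr18 at 68.2 and chr03 at 61.0 events per Mb, inside the range of the other chromosomes. In the lower panel chr04 is first at 11.4%, with an interval that overlaps those of the other 18. The axes do not start at 0.

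The 3 chromosomes differed in how events were laid out along them. Chr04 was filled most evenly. Its 24 full windows held between 39 and 102 events with a median of 75, and none was nearly empty. Its ratio of variance to mean, 3.92, was the lowest of the 19 chromosomes, the other 16 lying between 5.28 and 15.6. Chr18 was at the other end, with 34 windows of 0 to 116 events, a median of 71.5 and a ratio of 14.7, rank 3 of 19. Chr03 had 20 windows of 23 to 106 events, a median of 57.5 and a ratio of 8.16. These ratios describe 1 list and were not tested against each other.

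Chr03 changed level near its middle. Its first 10 windows held 56 to 106 events with a median of 77, and 8 of them reached the genome-wide median of 66 events. Its last 10 windows held 23 to 59 events with a median of 43.5, and none reached it. The ranges overlap only between 56 and 59. In total 792 events lay in the first 10 windows and 436 in the last 10, a ratio of 1.82, which ranked 3 of 19 in inequality. The ratio lay between 0.518 and 1.97 on the other 16, with a median of 1.51, so a richer first part was common in the orientation of this assembly. Chr04 had no such step, with 872 events in its first 12 windows and 904 in its last 12, a ratio of 0.965.

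Chr18 was divided by a gap. Each of its first 15 windows held 67 to 116 events, with a median of 94, and all 15 reached the median of 66. The next 5 windows held 101 events together, from 0 to 39 each. The last 14 windows held 26 to 107 events with a median of 52, and 5 of them reached 66. On the near side of the longest event-free distance, 1406 events lay over 15.9 Mb at 88.4 per Mb (83.8 to 93.1). On its far side, 949 lay over 17.4 Mb at 54.6 per Mb (51.2 to 58.2). The near side was denser by more than counting error, but the dividing point was chosen from these data and the difference was not tested.

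**Figure D2:**
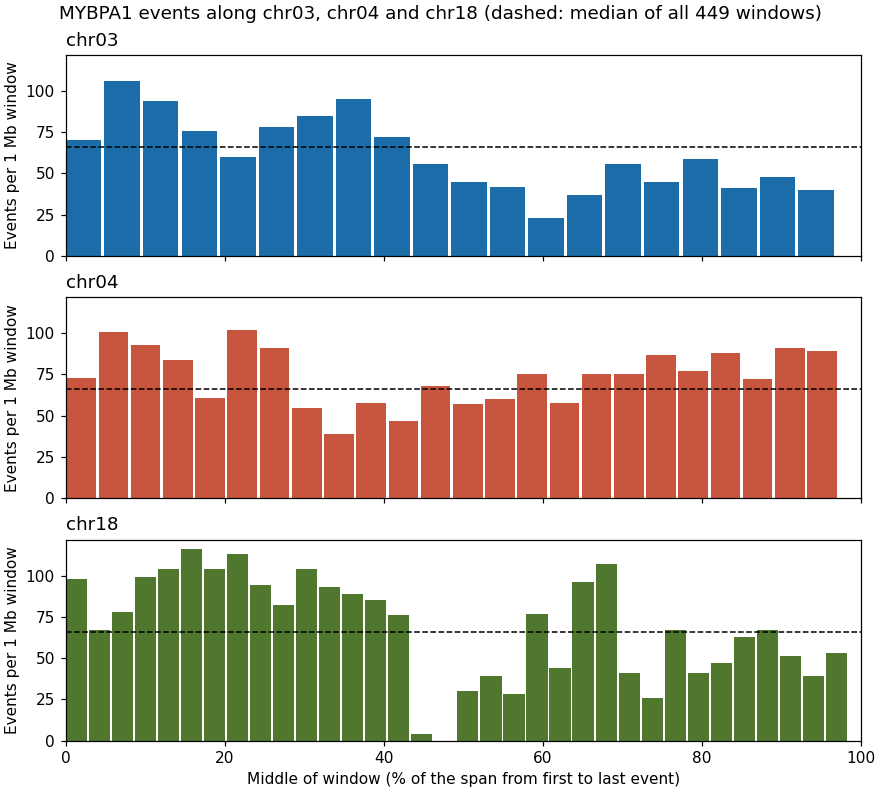
Each bar is the number of events in 1 full window of 1 Mb, placed by the middle of the window as a percent of the distance between the outermost events of the chromosome. Panels show chr03, chr04 and chr18, and the dashed line marks the median of 66 events over the 449 windows of all numbered chromosomes. Chr03 falls from a median of 77 in its first 10 windows to 43.5 in its last 10, chr04 stays between 39 and 102, and chr18 shows windows of 4 and 0 events before its middle.

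The windows at the extremes were located as follows. On chr18 the richest were 5000001 to 6000000 with 116 events and 7000001 to 8000000 with 113, and only 2 windows of all numbered chromosomes held more than the first of these. On chr03 the richest were 1000001 to 2000000 with 106 events and 7000001 to 8000000 with 95. On chr04 they were 5000001 to 6000000 with 102 and 1000001 to 2000000 with 101. The poorest on chr03 were 12000001 to 13000000 with 23 events and 13000001 to 14000000 with 37. The poorest on chr04 were 8000001 to 9000000 with 39 and 10000001 to 11000000 with 47, more than the poorest window on any of the other 16 chromosomes, where the highest such count was 37. The poorest on chr18 were 16000001 to 17000000 with 0 and 15000001 to 16000000 with 4, whose strongest event had a signal of only 49.9.

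Long stretches without events took up the least of chr04. A stretch was counted where neighbouring event centres lay at least 100 kb apart. Chr04 had 15, covering 2.29 Mb or 9.26% of its span, the second lowest share of the 19 chromosomes. Chr03 had 24, covering 3.64 Mb or 17.7%. Chr18 had 26, covering 5.76 Mb or 16.7%. The other 16 chromosomes lay between 6.71% and 34.1% with a median of 18.6%. On chr03, 19 of the 24 stretches lay beyond the midpoint of the span, and on chr18 20 of 26 did, against 7 of 15 on chr04.

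The longest single stretch of all numbered chromosomes lay on chr18 from 15952039 to 17165488, a distance of 1213 kb. It began at 46.1% of the span and ended at 49.6%. The next longest on this chromosome, 428 kb from 15524380 to 15952039, adjoined it, parted from it by 1 event of signal 38. The third longest, 367 kb from 14943565 to 15310646, lay just before. On chr03 the longest were 311 kb from 13640216 to 13951333, 227 kb from 19466865 to 19693678 and 220 kb from 15260293 to 15480513. On chr04 they were 271 kb from 8491143 to 8761747, 258 kb from 8232843 to 8490907 and 173 kb from 7259409 to 7432267. The first pair on chr04 nearly touch, so a nearly empty block of that chromosome also lay near 34.3% of its span. Its longest stretch was nevertheless shorter than the longest on 15 of the other 16 chromosomes. Neither centromere positions nor assembly gaps were used here, and their part in these stretches was not tested.

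With the stretches taken out, chr04 and chr18 had nearly the same density, 82.0 and 81.9 events per Mb. Chr03 had 74.1 per Mb, rank 18 of 19, and the other 16 lay between 73.3 and 90.3. The stretches are defined by their lack of events, so this is a density after a filter on density. These are values of 1 list, with no test. In the regression without windows of 10 or fewer events, chr18 had 0.979 times the density of chr04 (adjusted p = 0.894) and 1.18 times that of chr03 (adjusted p = 0.277, n = 432 windows). The same setting left none of the 4 density calls against chr09, chr16 and chr19. It dropped 3 windows on chr09, 2 on chr16, 3 on chr19, 2 on chr18 and 0 on chr04. This too is a filter on density, and it lowers the ratios of chr04 to chr09, chr16 and chr19 by construction.

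At short range the 3 chromosomes had nearly equal shares of neighbouring events. On chr03, 355 events (28.2%, 95% Wilson interval 25.8 to 30.8%) had another event centre within 1000 bp. On chr04 there were 527 (28.7%, 26.7 to 30.8%) and on chr18 669 (28.4%, 26.6 to 30.3%). A quasi-binomial regression over windows gave odds ratios of 1.00 for chr04 over chr03 (0.807 to 1.25), 1.01 for chr18 over chr03 (0.822 to 1.24) and 1.01 for chr18 over chr04 (0.837 to 1.21), all with an adjusted p of 0.996. Of all chromosome pairs 0% differed in this share after adjustment, and 5 had an unadjusted p under 0.05, none of them a pair with chr03, chr04 or chr18. The mean of the 3 against the other 16 gave an odds ratio of 1.02 (0.927 to 1.11, p = 0.734, the same after adjustment over the 4 measures, n = 448 windows with an event).

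The observed shares were more alike than density alone would give, but whether the share follows density was not tested. If events were placed independently at the density of their own 100 kb, a formula for such positions gives 13.6% of chr03 events a neighbour within 1000 bp, 15.8% on chr04 and 15.8% on chr18. The observed share was 2.07 times that value on chr03, the second highest ratio of the 19 chromosomes, against 1.81 on chr04 and 1.79 on chr18. The other 16 lay between 1.62 and 2.24. It was the share that was alike, not the number of such events, which was lowest on chr03.

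Events with a very close neighbour were a smaller share of chr03 than of chr18. Events with a neighbour within 200 bp, closer than the 201 bp width of an event in the list, were 9.38% of chr03, 10.3% of chr04 and 11.0% of chr18. Events whose nearest neighbour lay from 201 to 1000 bp away were 18.8, 18.4 and 17.5% in that order. Only 15 distances on chr03 fell between 150 and under 200 bp, 1.19% of its distances, under the 1.25 to 2.08% of the other 16. Chr18 had 10 distances under 50 bp, 0.425% of its distances, whereas the other 16 reached at most 0.277%. The counts in both distance classes are small, and none of these shares was tested. Among neighbours at most 200 bp apart, the median ratio of the higher to the lower signal was 2.01 on chr03 (60 pairs), 1.74 on chr04 (96 pairs) and 1.70 on chr18 (131 pairs), against 1.69 on the other 16.

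At longer range, the median distance between neighbouring events was 7837 bp on chr03, 7018 bp on chr04 and 6708 bp on chr18. Chr18, with the longest empty stretch, thus had one of the shortest typical distances, rank 17 of 19 from the longest. On chr03, 23.1% of distances lay from 20000 to under 100000 bp, compared with 19.6% on chr04 and 19.2% on chr18. Events with no neighbour within 20 kb were 77 on chr03 (6.12%), 103 on chr04 (5.60%) and 125 on chr18 (5.31%).

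**Figure D3:**
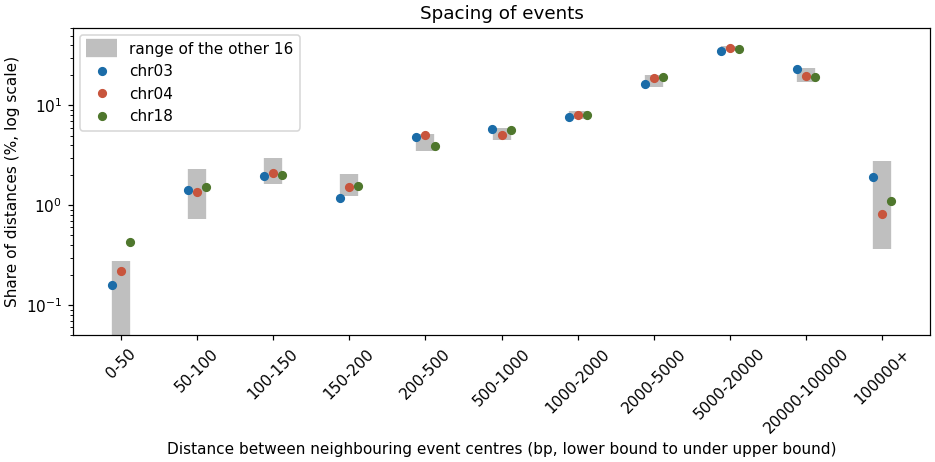
The plot gives the share of distances between neighbouring event centres in each distance class, on a log scale, for chr03, chr04 and chr18 (points) and the range over the other 16 chromosomes (grey bars). For distances under 50 bp the lowest of the 16 is 0 and lies off the axis. Most points fall inside the grey range. Chr18 lies above it under 50 bp with 0.425%, and chr03 below it from 150 to under 200 bp with 1.19%.

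Events at most 1000 bp apart were also joined into groups. Chr03 had 29 groups of 3 or more, 23.1 per 1000 events, the highest rate of the 19 chromosomes. This rank rests on a small count and was not tested. Chr04 had 31 (16.9 per 1000) and chr18 had 42 (17.8 per 1000), while the other 16 chromosomes lay between 9.66 and 21.4. The groups of chr03 were small, 26 of them with exactly 3 events. Its largest group had 5 events from 14341080 to 14342429, in the poorer part of the chromosome, with 1 event of signal 354.7 and a median of 32.2. The largest group of chr04, which was the largest of all numbered chromosomes, had 7 events from 20615225 to 20618061 with signals from 44.2 to 151 and successive distances of 123 to 892 bp. No group of chr18 exceeded 4 events. The first of its 5 groups of that size ran from 6092597 to 6095052 with signals from 31 to 97.9.

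Signal, the strength value the authors gave each event, had a similar middle on the 3 chromosomes. The median was 48.2 on chr03 (quartiles 34.2 and 76), 50 on chr04 (37 and 79.3) and 49.9 on chr18 (36 and 78). The medians of the other 16 ran from 46.9 to 52. The mean log2 signal was 5.77 on chr03, 5.86 on chr04 and 5.83 on chr18, ranks 16, 2 and 6. A regression on the mean log2 signal of windows, weighted by their events, gave chr04 minus chr03 as 0.08 (95% interval -0.0034 to 0.16, adjusted p = 0.410, n = 448 windows). It gave 0.06 for chr18 minus chr03 (-0.02 to 0.14, adjusted p = 0.499) and -0.02 for chr18 minus chr04 (-0.09 to 0.05, adjusted p = 0.865, n = 448 windows). Of all pairs, 1.17% differed after adjustment, none of them with chr03, chr04 or chr18, for which the smallest adjusted p against another chromosome was 0.0893. The mean of the 3 exceeded that of the other 16 by 0.01 (-0.02 to 0.05, p = 0.519, adjusted over the 4 measures 0.692, n = 448 windows).

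The weakest events were more frequent on chr03. Signals under 30 were carried by 14.9% of its events, 9.30% of those on chr04 and 11.3% of those on chr18. The other 16 ranged from 7.53 to 17.2%, so chr04 was near the low end and chr03 near the high end. The list itself ends at a signal of 22 and a q of 0.01, and weaker sites were not analysed here. On chr03, 11.6% of the events in the first 10 windows and 20.6% of the fewer events in the last 10 had a signal under 30. In the first and last 12 windows of chr04 the shares were 9.52 and 9.62%, and in the first and last 17 of chr18 they were 9.60 and 14.0%.

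On chr03 rich windows were also strong windows. The median signal of its events was 51 in the first 10 windows and 42.1 in the last 10. The difference in mean log2 signal was 0.31, the largest of the 19 chromosomes, the other 16 lying between -0.17 and 0.28. First minus last windows gave -0.05 on chr04 and 0.04 on chr18. Over the 20 windows of chr03, event count and median signal had a Pearson's r of 0.733, and 0.693 without the 2 windows farthest from the median count. On chr04 r was -0.133 over 24 windows, and -0.197 without the 2 farthest. On chr18 r was 0.158 over the 32 windows with 20 or more events, and 0.158 again without the 2 farthest. Over such windows of the other 16 chromosomes, r lay between -0.605 on chr09 and 0.622 on chr16, with 0.583 on chr19. The pattern of chr03 was thus the strongest but not found on chr03 alone. Windows of 1 chromosome share libraries and neighbouring sequence, so these values describe the list and carry no test.

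**Figure D4:**
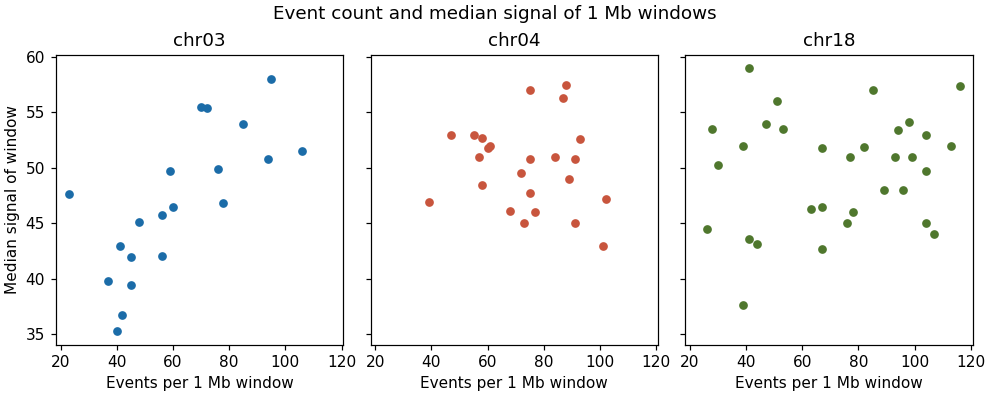
Each point is a full window of 1 Mb with at least 20 events, plotted by its number of events and the median signal of those events (the signal axis does not start at 0), for chr03, chr04 and chr18. On chr03 the medians run from 35.3 to 58 and are higher where the count is higher (r 0.733), whereas chr04 (r -0.133) and chr18 (r 0.158) show no such pattern.

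The share of strong events put chr04 at rank 1, chr18 at rank 4 and chr03 at rank 10 of the 19 chromosomes. Events in the top 10% of numbered chromosomes, with a signal of 134 or more, were 127 on chr03 (10.1%, 8.55 to 11.9%), 209 on chr04 (11.4%, 10 to 12.9%) and 255 on chr18 (10.8%, 9.64 to 12.1%). Quasi-binomial odds ratios were 1.14 for chr04 over chr03 (0.892 to 1.45), 1.06 for chr18 over chr03 (0.835 to 1.33) and 0.928 for chr18 over chr04 (0.757 to 1.14), all with an adjusted p of 0.947. No pair of chromosomes (0%) differed after adjustment. At an unadjusted p under 0.05 there were 6 pairs of all, 4 of them among the 48 that set one of the 3 against another chromosome. The same count was 49 pairs of all and 11 of the 48 for density. For log2 signal it was 21 of all and 5 of the 48, and for near neighbours 5 of all and 0 of the 48. Such unadjusted counts do not show that strong events differ on the 3 chromosomes. Together the 3 had 591 such events (10.8%, 10.04 to 11.7%) and the other 16 had 2423 (9.94%, 9.57 to 10.3%). The odds ratio was 1.12 (1.01 to 1.24, p = 0.0363, n = 448 windows), which did not pass after adjustment over the 4 measures (adjusted p = 0.145).

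The direction of the pooled difference changed with the threshold. In the top 1%, with a signal of 381 or more, the 3 chromosomes together had 43 events (0.789%, 0.586 to 1.06%) and the other 16 had 256 (1.05%, 0.929 to 1.19%). Chr03 had 10, chr04 12 and chr18 21. The odds ratio at this threshold was 0.786 (adjusted p over the 4 measures 0.446), and for the top 25% it was 0.984 (adjusted p = 0.734, n = 448 windows).

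On chr18 the strongest event lay at 4700537 to 4700737 with a signal of 1174, 23.5 times the chromosome's median, and had a p too small to be written in the list. Its window held 104 events, and another of the 5 strongest lay about 3 kb away at 4703989 to 4704189 with a signal of 744. The others were at 31621932 to 31622132 (signal 767), 7222140 to 7222340 (signal 654.2) and 20249553 to 20249753 (signal 567), in windows of 51, 113 and 77 events in that order. Of all events on numbered chromosomes, the strongest of chr18 ranked 12.

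On chr04 the strongest event lay at 23015089 to 23015289 with a signal of 1138, 22.8 times the chromosome's median, rank 13 on numbered chromosomes, again with a p too small to be written. The next, 9114327 to 9114527, had 547.9, so a single event stood far above the rest of the chromosome. It was followed by 21169823 to 21170023 (536.9), 9111202 to 9111402 (530) and 1292533 to 1292733 (514). The windows of the 5 held 58 to 101 events, and 3 of the 5 lay in windows below the chromosome's median of 75. The events at 9114327 and 9111202 are about 3 kb apart, like the close pair of strong events on chr18.

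On chr03 the strongest event, 8196434 to 8196634, had a signal of 893.6, a -log10 p of 240 and rank 20 on numbered chromosomes. Another event centre lay 73 bp from it. The others of the 5 strongest were 7955758 to 7955958 (signal 677.4), 5817664 to 5817864 (647.6), 8842146 to 8842346 (627) and 2794601 to 2794801 (588.9). All 5 lay in the first 42.7% of the span, in windows of 72 to 95 events. On chr04 and chr18 the 5 strongest lay on both sides of the midpoint.

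On each of the 3 chromosomes, median signal was higher within 200 bp of another event than at 201 to 1000 bp. The difference was widest on chr03 and was not tested. Events within 200 bp of another had median signals of 75.4 on chr03 (118 events), 62.6 on chr04 (189) and 68.5 on chr18 (258), against 62.5 on the other 16. For a nearest neighbour at 201 to 1000 bp the medians were 45.2, 49 and 48, against 50. Events over 20 kb from any other had medians of 49, 44 and 42, against 42.9, so on chr03 isolated events were no weaker than its typical event. Overlapping events share reads in principle, and their signals are not independent.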

How the data were processed

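Per the labels, 2 MYBPA1 and 2 pIX-HALO libraries were sequenced. The tools named in the submitters' processing notes are Bowtie2 2.0 and fastp 0.21.0, and the name of the list points to GEM as the event caller. Not given in the sources used here are the caller's settings and control, the build and the pooling of libraries. Each event of the deposited list carries the authors' display score (not used), signal value of unstated scaling, −log10 p-value and −log10 q-value. Decimal commas were read as points.

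Computed here, with position 1 as the first base: event centres, distances between neighbours, and full 1 Mb windows up to the last event of each of 19 chromosomes. Density was fitted by quasi-Poisson, shares by quasi-binomial and mean log2 signal by weighted linear regression over windows, with chromosome as the only term. Wald tests of all pairs were adjusted by Benjamini-Hochberg, and 1 contrast per measure set chr03, chr04 and chr18 against the other 16. The fits were tested on simulated data with independent windows, which cannot check the effect of correlation between neighbouring windows. Windows are not replicates, and p-values measure the spread along chromosomes only. The members and tests were chosen with earlier results of these data known. Regions were named by rule: per chromosome the 5 strongest events, 3 longest stretches, 2 richest and 2 poorest windows, and the largest group, ties going to the lower coordinate. Divisions of chromosomes, signals under 30, distance classes and other remarks on rank were added after values were seen. Python 3.11.15 was used with scipy 1.17.1, pandas 2.3.3, numpy 2.4.6 and matplotlib 3.10.9.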

Additional observations from a re-analysis of the deposited data

How the results depend on the processing

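Of 96 alternative values of the 16 tested comparisons of chr03, chr04 and chr18, 82 kept their direction and stayed outside the threshold, and 14 changed direction, none of them past the threshold. All 28 for density kept their direction. For the share of near neighbours, windows of 5 Mb gave odds ratios of 0.956 for chr04 over chr03 and 0.989 for the 3 over the other 16, near at 500 bp gave 0.935 for chr18 over chr04 and 0.978 for the 3 over the 16, near at 5000 bp gave 0.955 for chr18 over chr04, a −log10 q of at least 5 gave 0.968 for chr04 over chr03, and the list without the weaker of events within 200 bp gave 0.948 for chr04 over chr03, 0.883 for chr18 over chr03 and 0.931 for chr18 over chr04. At a −log10 q of at least 5 the log2 signal of chr18 minus chr04 was 0.014. For strong events, the top 25% gave 0.984 for the 3 over the 16, and the top 1% gave 0.786, with 0.829 for chr04 over chr03 and 1.34 for chr18 over chr04.

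The 20 density calls among all pairs, and the 4 of 48 with chr03, chr04 or chr18, fell to 0 and 0 with windows of 2 Mb and of 5 Mb, to 11 and 1 at a −log10 q of at least 5, and to 5 and 0 without windows of 10 or fewer events. At 2 Mb the 4 density ratios stayed between 1.39 and 1.52. Larger windows leave fewer units, and a q threshold leaves fewer events. Leaving out windows of 10 or fewer events is a filter on density itself, which took windows from chr09, chr16 and chr19 but none from chr04. The 2 signal calls fell to 0 with windows of 2 Mb, of 5 Mb, in the 50% of events with the highest signal and at a −log10 q of at least 5. Event-free stretches on chr03, chr04 and chr18 numbered 92, 81 and 114 at 50 kb, 6, 2 and 7 at 200 kb, 41, 47 and 50 in the stronger 50% of events and 39, 33 and 48 at a −log10 q of at least 5, which follows from the shorter or longer minimum and from fewer events. By number, chr04 had the fewest in 3 of these 4 and chr03 in the stronger 50%. These counts are not scaled to span, which was 20.6 Mb on chr03, 24.7 Mb on chr04 and 34.5 Mb on chr18, so they do not rank the chromosomes by stretches per Mb. No paired analysis was possible because values per library were not in the list, and for the same reason no library could be left out. The unknown depth limits what can be said of weaker sites.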

Other observations

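The deposited −log10 p did not rank the chromosomes as signal did. Its median was 6.42 on chr03, 6.69 on chr04 and 6.32 on chr18, against 6.12 to 6.74 on the other 16 chromosomes. Among events with a signal from 40 to 60, it was 6.26 on chr03 (360 events), 6.21 on chr04 (551) and 5.92 on chr18 (671). At like signal chr18 thus had the lowest median of the 3, inside the 5.65 to 6.51 of the other 16. The share of events with a −log10 q of at least 5 was 58.2% on chr03 (95% Wilson interval 55.4 to 60.9%), 59.5% on chr04 (57.3 to 61.7%) and 57.7% on chr18 (55.7 to 59.7%). These intervals overlap and the differences were not tested.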
